A study of Saccharomyces cerevisiae with 14 samples.

Results

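The genes described here are 38 chaperone genes of budding yeast, a list given by gene symbol and not by measured values. The list and its classes were chosen with earlier results of these data known. All 38 were measured on the arrays, out of 5449 Saccharomyces cerevisiae genes tested, each through its brightest probe set. They fall into 6 classes by known role: 10 stress-induced heat shock proteins, 8 constitutive Hsp70 and Hsp90 proteins with their cochaperones, 4 ribosome-bound chaperones, the 8 subunits of TRiC, 4 subunits of prefoldin and 4 organelle chaperones. The study grew the wild-type strain YSBN6 at 30 °C and pH 5 in a fermentor run as a batch, with 20 g/L glucose, and 200 mg/L proline supplied the nitrogen. During exponential growth it raised glutamine at once to 400 mg/L. Proline is a poor nitrogen source for yeast and glutamine a preferred one, so the pulse is a nutritional upshift. No culture without the pulse was used here, so time in the fermentor and glutamine cannot be told apart.

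RNA was measured on 14 arrays. The steady state 10 min before the pulse (-10 min), 7 min and 24 min each had 3 arrays, 1 from each of the experiments BY003, BY008 and BY012, which the design text calls biological triplicates. At 3, 10, 14, 56 and 120 min a single array of BY008 was hybridised, which leaves those times unreplicated. Over all probe sets the median intensity was 159.2 on the lowest array and 278.7 on the highest. The number of arrays limits the precision. Values per array are log2 intensities and are given in the order BY003, BY008, BY012. Levels are compared for 1 gene over time and never between genes.

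Chaperones bind unfolded or newly made proteins and help them fold. Hsp70 and Hsp90 proteins work through cycles of ATP binding that J proteins, nucleotide exchange factors and other cochaperones drive, small heat shock proteins hold unfolded proteins, and Hsp104 pulls proteins out of aggregates. Many of these genes are under Hsf1, the heat shock factor, and Msn2 and Msn4, the factors of the general stress response, and are more active in slowly growing or stressed yeast. Another set of chaperones meets nascent chains at the ribosome, and the chaperonin TRiC, helped by prefoldin, folds actin, tubulin and other new proteins in the cytosol.

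After glutamine most stress-induced genes were lower and most ribosome-bound, TRiC and prefoldin genes higher. At 24 min, 9 of the 10 stress-induced genes were lower than at -10 min, led by the small heat shock genes HSP42 (13.4-fold lower) and HSP26 (12.4-fold lower). All 4 ribosome-bound chaperone genes, 6 of 8 TRiC genes and 3 of 4 prefoldin genes were higher, by at most 2.74-fold (SSZ1). Over all 38 genes, 16 were higher and 15 lower at 24 min, at an adjusted p under 0.05 in limma with Benjamini-Hochberg adjustment over all genes. The same test called 24.1% of all genes higher and 44.9% lower at 24 min. At 7 min, 13 of the 38 were higher and 13 lower, against 16.7% and 35.7% of all genes. At 24 against 7 min, 1 member was higher and 7 were lower, against 13.2% and 20.2% of all genes. With experiment as a replicate block, 3 were higher and 8 lower in that comparison, against 902 and 1350 of all 5449 genes. An F test over the 3 replicated times called 31 of the 38, against 73.4% of all genes. In bulk RNA, a change in the share of cells that hold a transcript and a change per cell cannot be told apart.

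The median change of all genes was -0.33 on the log2 scale at 7 min and -0.33 at 24 min, so part of a fall of that size is shared by genes in general. With each array's median subtracted, 17 members were higher and 8 lower at 7 min, against 21.3% and 24.2% of all genes. At 24 min this gave 18 higher and 13 lower, against 31.9% and 35.6% of all genes. The subtraction turned the sign of HSP12 and GIM4 at 7 min and of SSA2, FES1, GIM4 and SSC1 at 24 min, none of which was called in either analysis.

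**Figure D1:**
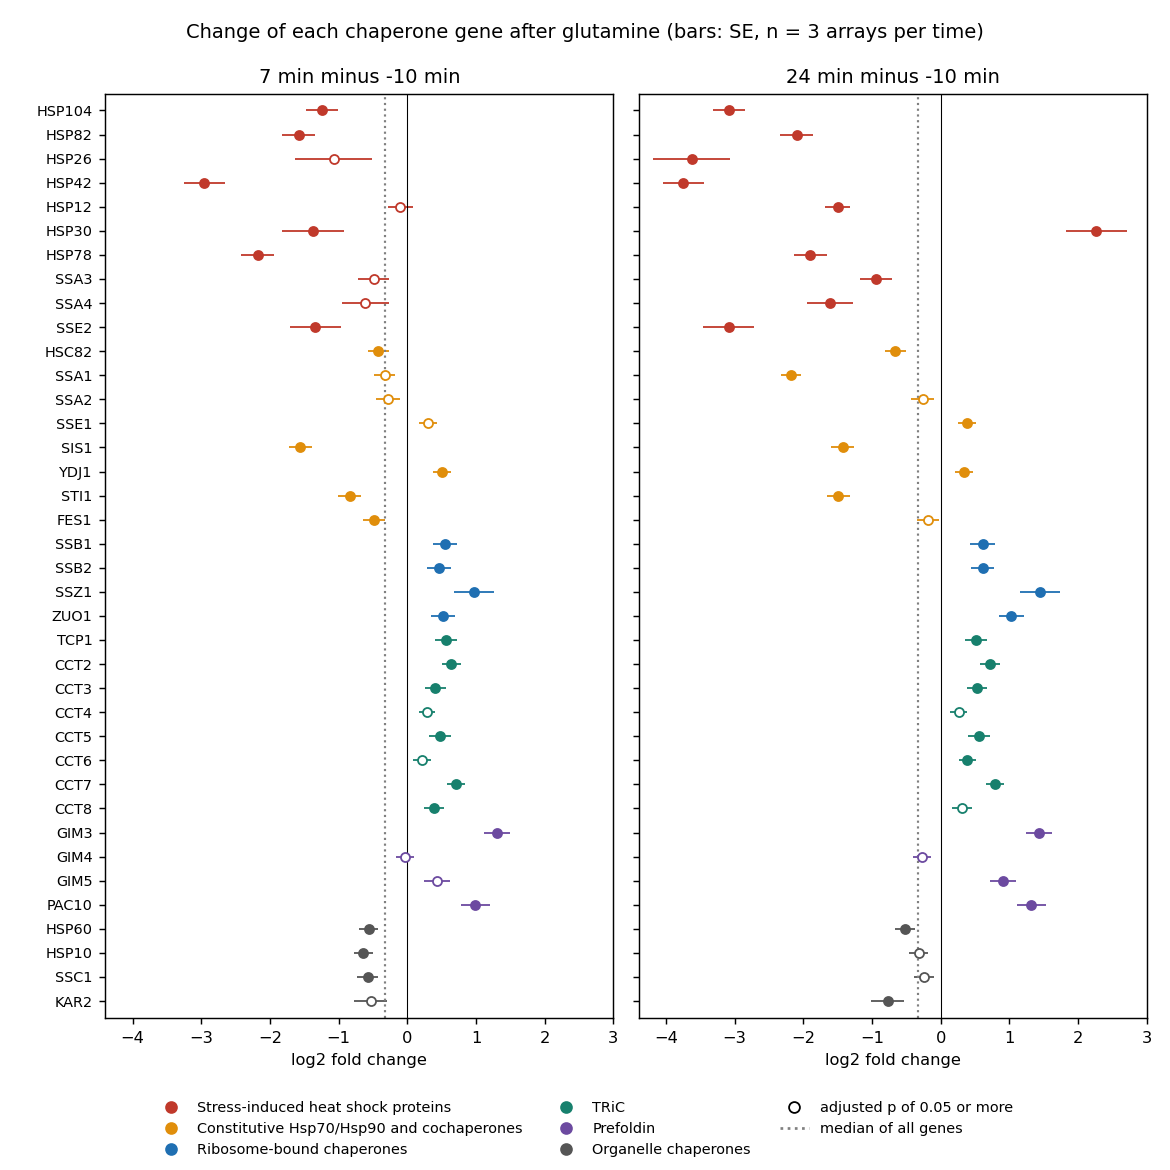
Log2 fold change of each of the 38 genes at 7 min (left) and 24 min (right) against -10 min, with standard errors, coloured by class, where open points did not pass the test and the dotted line is the median of all genes (-0.33 at both times). HSP42 is the lowest point in both panels (-2.96 at 7 min and -3.75 at 24 min), HSP30 alone among the stress-induced genes lies right of 0 at 24 min (2.27), and the TRiC genes cluster between 0.26 and 0.79 at 24 min.

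The -10 min array of BY012 stood apart from the other arrays of that time for these genes. All 10 stress-induced genes were brighter on it than the mean of the other 2, with a median difference of 0.73 on the log2 scale. All 4 ribosome-bound genes (median -0.65), all 8 TRiC genes (median -0.22) and all 4 prefoldin genes (median -0.52) were dimmer on it, and the median of all genes was 0.11. The directions on that array are the reverse of the changes after glutamine, and class counts or medians that moved by more than 1.5 times without it are given with the class. Without that array, 8 members were higher and 10 lower at 7 min, against 892 and 1657 of all 5449 genes. At 24 min 16 members were then higher and 15 lower, against 1300 and 2340 of all genes. On the ACT1 control probes, a measure of RNA integrity, the 3-prime signal exceeded the 5-prime signal by 1.06 ± 0.27 log2 units at -10 min, by 1.07 ± 0.23 at 7 min and by 1.12 ± 0.24 at 24 min (SD, n = 3 each). That excess was 0.67 to 1.04 on the arrays of BY008 and 1.15 to 1.34 on those of BY003 and BY012. The part of this difference between experiments in the results was not tested.

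Most stress-induced heat shock genes were lower at 24 min, and fewer had passed the test at 7 min. Of the 10, 6 were lower at 7 min (HSP104, HSP82, HSP42, HSP30, HSP78 and SSE2) and none higher, and at 24 min 9 were lower and 1 (HSP30) higher. Their median change was -1.29 at 7 min and -2.00 at 24 min on the log2 scale, or -0.96 and -1.67 relative to all genes. All 10 calls at 24 min held without any single experiment or array. At 7 min, leaving out an experiment gave 4 (without BY003), 5 (without BY008) or 6 (without BY012) called lower, and 5 were called without the -10 min array of BY012. HSP82, HSP42 and HSP78 were called at 7 min in each of these. The 6 called without BY012 include HSP26 (adjusted p = 0.034) and not HSP30 (adjusted p = 0.204). Relative to all genes, the class median at 7 min was -0.67 without the -10 min array of BY012.

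HSP42 encodes a small heat shock protein that gathers misfolded proteins into aggregates. It had 12.82, 12.49 and 13.64 at -10 min, 9.85, 10.05 and 10.17 at 7 min, and 9.49, 8.79 and 9.43 at 24 min. Every 7 and 24 min array lay below every -10 min array by more than 2 log2 units. The change was -2.96 ± 0.30 (SE) at 7 min and -3.75 ± 0.30 at 24 min (limma adjusted p = 7.04e-05 and 6.78e-06). The further step between 24 and 7 min, -0.78 ± 0.30, did not pass the test (adjusted p = 0.0703), but did with experiment as a replicate block (adjusted p = 0.0273).

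HSP78, the mitochondrial relative of Hsp104, had 12.89, 12.49 and 13.43 at -10 min, 10.69, 11.06 and 10.51 at 7 min, and 11.04, 10.97 and 11.12 at 24 min. It was down 4.54-fold at 7 min (-2.18 ± 0.24, adjusted p = 0.000109) and 3.72-fold at 24 min (-1.90 ± 0.24, adjusted p = 8.94e-05). Its 24 and 7 min arrays overlapped, and the difference between them did not pass the test (0.29 ± 0.24, adjusted p = 0.386). HSP82, the stress-induced Hsp90 gene, had 13.34, 12.99 and 13.88 at -10 min, 11.60, 12.06 and 11.81 at 7 min, and 11.41, 11.47 and 11.04 at 24 min. Most of its fall was already there at 7 min (-1.58 ± 0.24) and it was 4.29-fold lower at 24 min (-2.10 ± 0.24, adjusted p = 4.71e-05).

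HSP104 and SSE2 were lower at 7 min and lower again at 24 min. HSP104, the cytosolic disaggregase, had 13.90, 13.45 and 14.22 at -10 min, 12.42, 12.42 and 12.99 at 7 min, and 10.89, 10.68 and 10.77 at 24 min. The 3 times did not overlap, with changes of -1.24 ± 0.23 at 7 min, -3.08 ± 0.23 at 24 min and -1.83 ± 0.23 between 24 and 7 min (adjusted p = 0.00175, 4.82e-06 and 0.000439). SSE2, an Hsp110 protein and nucleotide exchange factor of Hsp70, had 11.63, 11.39 and 12.95 at -10 min, 10.35, 10.52 and 11.09 at 7 min, and 8.95, 8.74 and 9.0 at 24 min. It was 8.51-fold lower at 24 min (-3.09 ± 0.37, adjusted p = 7.07e-05). At 7 min its change was -1.34 ± 0.37 (adjusted p = 0.0146), which lost the call without BY003 (adjusted p = 0.0939) and when only the 7 min array of BY003 was left out (adjusted p = 0.0553). The 7 min call of HSP104 was also lost without BY003 (adjusted p = 0.0534), as was the step of SSE2 between 24 and 7 min (adjusted p = 0.0765).

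HSP26, HSP12 and SSA4 passed the test at 24 min and not at 7 min, and each was lower at 24 than at 7 min. HSP26, a small heat shock protein gene, had 13.97, 12.89 and 14.56 at -10 min, 12.37, 11.78 and 14.06 at 7 min, and 10.19, 10.15 and 10.20 at 24 min. The arrays at 24 min lay within 0.05 of each other, whereas those at 7 min spread over more than 2 log2 units and overlapped those at -10 min. The change was -1.07 ± 0.56 at 7 min (adjusted p = 0.134, and 0.0436 with experiment as a replicate block) and -3.63 ± 0.56 at 24 min (adjusted p = 0.000344). The step between 24 and 7 min was -2.56 ± 0.56 (adjusted p = 0.00812, and 0.0985 without BY003).

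HSP12 encodes a small membrane-associated stress protein. Its values were 14.98, 14.73 and 15.08 at -10 min, 14.83, 14.64 and 15.01 at 7 min, and 13.47, 13.13 and 13.67 at 24 min. It was 2.84-fold lower at 24 min (-1.50 ± 0.18, adjusted p = 7.07e-05) and had changed by -0.10 ± 0.18 at 7 min (adjusted p = 0.644). Before the pulse it stood close to the highest log2 value of any probe set on any array, 15.14, and the part of that upper limit in its small early change was not tested. The stress-induced Hsp70 gene SSA4 had 11.21, 10.80 and 12.24 at -10 min, 10.67, 10.49 and 11.26 at 7 min, and 9.81, 9.77 and 9.85 at 24 min. It was 3.05-fold lower at 24 min (-1.61 ± 0.34, adjusted p = 0.00219). Its step between 24 and 7 min (-1.0 ± 0.34, adjusted p = 0.0482) was lost in 9 of the 12 analyses that left out an experiment or an array, with adjusted p up to 0.24 without BY003.

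SSA3, the other stress-induced Hsp70 gene, had 11.31, 11.88 and 12.32 at -10 min, 11.20, 11.39 and 11.44 at 7 min, and 10.82, 10.93 and 10.95 at 24 min. Its fall was the smallest of the class, -0.94 ± 0.23 at 24 min (1.91-fold, adjusted p = 0.00493). At 7 min it was -0.49 ± 0.23 (adjusted p = 0.0954, and 0.0446 with experiment as a replicate block).

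HSP30, which encodes a stress protein of the plasma membrane, turned round. It had 8.24, 9.60 and 9.63 at -10 min, 7.63, 8.03 and 7.71 at 7 min, and 12.08, 10.53 and 11.66 at 24 min. Of these 9 arrays, those at 24 min were all above the others and those at 7 min were the lowest. It was 4.81-fold higher at 24 min than at -10 min (2.27 ± 0.45, adjusted p = 0.00156) and 12.4-fold higher at 24 than at 7 min (3.63 ± 0.45, adjusted p = 0.00045). The fall at 7 min, -1.37 ± 0.45, passed the test (adjusted p = 0.0295) but was lost with array medians subtracted (adjusted p = 0.0596) and in 6 of the analyses that left out an experiment or an array, with adjusted p = 0.204 without BY012 and 0.103 without its -10 min array alone.

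**Figure D2:**
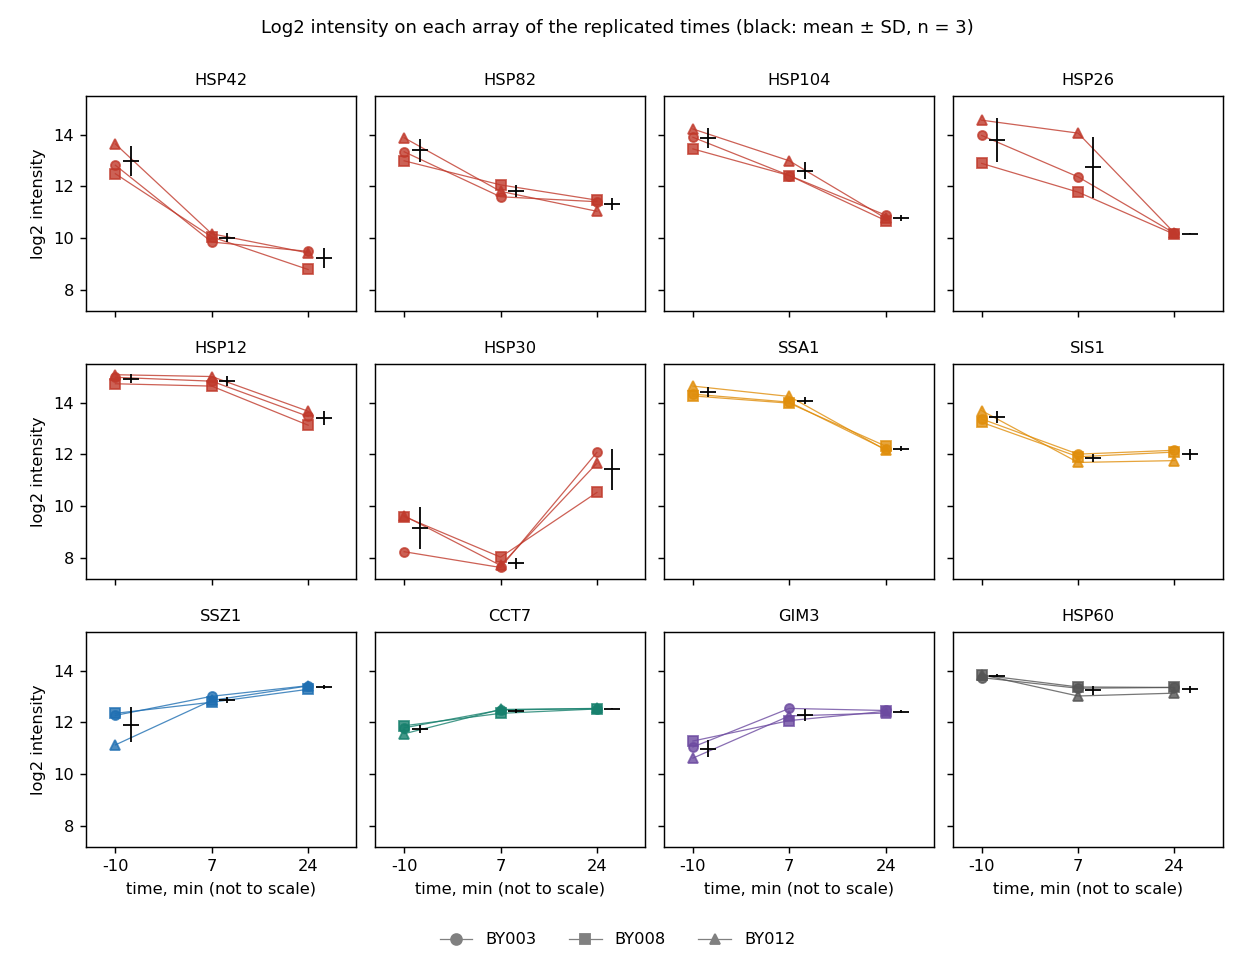
Log2 intensity of 12 of the genes on each array at -10, 7 and 24 min, with 1 symbol and line per experiment and the mean with SD (n = 3) in black. HSP42 and SIS1 reach most of their fall by 7 min, HSP26, HSP12 and SSA1 fall mainly between 7 and 24 min, and HSP30 dips and then rises. SSZ1, CCT7 and GIM3 rise, with little spread at 24 min.

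The constitutive cytosolic class was mixed. Of its 8 genes, 1 was higher at 7 min (YDJ1) and 4 lower (HSC82, SIS1, STI1 and FES1), and at 24 min 2 were higher (SSE1 and YDJ1) and 4 lower (HSC82, SSA1, SIS1 and STI1). The median change was -0.37 at 7 min and -0.46 at 24 min, close to that of all genes (-0.04 and -0.13 relative to them). SIS1 at both times and SSA1 and STI1 at 24 min were called without any single experiment or array. Without BY003, 1 gene was lower at 7 min and 3 at 24 min, and none was higher at either time. At 7 min, 2 genes were lower without BY008, without BY012, without the -10 min array of BY012 and without the 7 min array of BY003 or of BY012. At 24 min, none was higher without BY008 or without the 24 min array of BY003, and 1 was higher without BY012 and in 5 of the analyses that left out another single array.

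SIS1 encodes an essential J protein of the cytosol and nucleus. It had 13.37, 13.24 and 13.69 at -10 min, 12.01, 11.91 and 11.69 at 7 min, and 12.16, 12.09 and 11.76 at 24 min. It fell 2.96-fold by 7 min (-1.56 ± 0.17, adjusted p = 0.000126) and stood 2.69-fold lower at 24 min, with no call between 24 and 7 min (0.14 ± 0.17, adjusted p = 0.583). YDJ1, the other main cytosolic J protein gene, was higher at 7 min (0.50 ± 0.13, adjusted p = 0.00912) and at 24 min (0.34 ± 0.13, adjusted p = 0.0337). Its call was lost without BY003 at 7 min (adjusted p = 0.169) and in 7 of the analyses that left out an experiment or an array at 24 min (up to 0.269 without BY003).

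STI1, which links Hsp70 to Hsp90, had 13.79, 13.79 and 14.24 at -10 min, 13.03, 13.13 and 13.15 at 7 min, and 12.49, 12.62 and 12.23 at 24 min. The times did not overlap, and it was 2.82-fold lower at 24 min (-1.49 ± 0.17, adjusted p = 4.49e-05). At 7 min it was -0.84 ± 0.17 (adjusted p = 0.00285, and 0.0543 without BY003), and between 24 and 7 min -0.66 ± 0.17 (adjusted p = 0.0154, and 0.152 without BY003, 0.0546 without BY008 and 0.0551 without the 24 min array of BY012). FES1, a nucleotide exchange factor of Hsp70, was -0.48 ± 0.16 at 7 min (adjusted p = 0.0296) and -0.19 ± 0.16 at 24 min (adjusted p = 0.314). With array medians subtracted its 7 min call was lost (adjusted p = 0.119), as it was without any one experiment (adjusted p = 0.061 to 0.142).

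SSA1, an Hsp70 gene grouped here as constitutive, was the late faller of this class. It had 14.33, 14.26 and 14.64 at -10 min, 14.02, 13.98 and 14.24 at 7 min, and 12.19, 12.32 and 12.17 at 24 min. It was 4.54-fold lower at 24 than at -10 min (-2.18 ± 0.15, adjusted p = 3.31e-06) and 3.61-fold lower at 24 than at 7 min (-1.85 ± 0.15, adjusted p = 4.12e-05), while at 7 min it was -0.33 ± 0.15 (adjusted p = 0.0851), the same as the median of all genes.

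Among the paralog pairs, HSP82 with HSC82 and SSE2 with SSE1 set a stress-induced gene beside a constitutive one. In the other pairs both genes are of the same class as grouped here. These data hold no stress treatment that checks which genes stress induces. Probe sets of paralogs may read both partners, which would make them look more alike than they are. The differences between partners are given per experiment and were not tested. SSA2 had 14.16, 14.34 and 13.90 at -10 min, 13.80, 14.05 and 13.72 at 7 min, and 13.92, 14.03 and 13.69 at 24 min. Its times overlapped and it passed no test (-0.26 ± 0.17 at 24 min, adjusted p = 0.197). The change of SSA1 minus that of SSA2 at 24 min was -1.89, -1.63 and -2.25 log2 units in BY003, BY008 and BY012, whereas at 7 min they differed by at most 0.22 in any experiment.

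HSC82, the constitutive Hsp90 gene, had 14.14, 14.28 and 14.23 at -10 min, 13.68, 13.97 and 13.74 at 7 min, and 13.55, 13.76 and 13.35 at 24 min. It was 1.58-fold lower at 24 min (-0.66 ± 0.15, adjusted p = 0.00324, and 0.0511 without BY003). Its 7 min call (-0.42 ± 0.15, adjusted p = 0.0406) was lost with array medians subtracted (adjusted p = 0.259) and without any one experiment (adjusted p = 0.0573 to 0.246). Its stress-induced partner HSP82 was further down in every experiment, and the change of HSP82 minus that of HSC82 at 24 min was -1.35, -1.01 and -1.97.

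SSE1, the constitutive Hsp110 gene, had 13.62, 13.55 and 13.40 at -10 min, 13.87, 13.74 and 13.85 at 7 min, and 13.90, 13.77 and 14.03 at 24 min. It was 1.30-fold higher at 24 min (0.38 ± 0.13, adjusted p = 0.0265), a call lost without any one experiment (adjusted p = 0.0519 to 0.15). The change of SSE2 minus that of SSE1 at 24 min was -2.96, -2.87 and -4.57 in BY003, BY008 and BY012. Between the stress-induced Hsp70 genes, the change of SSA4 minus that of SSA3 was -0.91, -0.09 and -1.02 at 24 min.

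**Figure D3:**
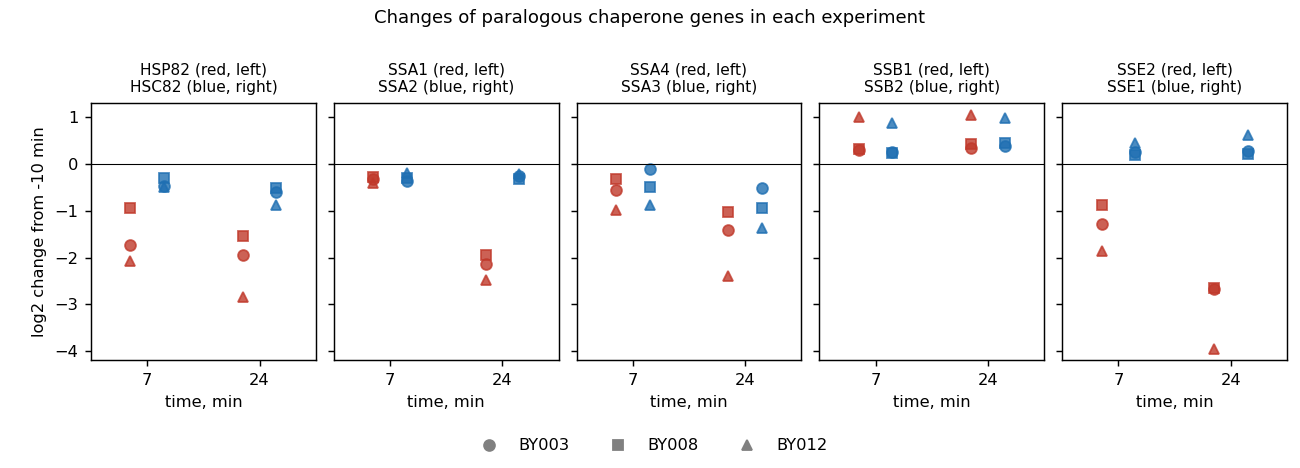
Log2 change from -10 min at 7 and 24 min in each experiment for 5 paralog pairs, with the first-named gene in red on the left and its partner in blue on the right, and 1 symbol per experiment. SSA1 and SSA2 are side by side at 7 min and at least 1.63 apart at 24 min, SSE2 and SSE1 lie on opposite sides of 0, and SSB1 and SSB2 overlap at both times.

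The ribosome-bound chaperone genes were all higher after the pulse. At 7 min and at 24 min 4 of 4 passed the test, with median changes of 0.53 and 0.82 (0.87 and 1.15 relative to all genes). The 24 min calls were 4 of 4 without BY008, without BY012 and without each single array, and 2 of 4 (SSZ1 and ZUO1) without BY003. At 7 min 0 were called without BY003, 1 without BY008, 1 without BY012, 2 without the -10 min array of BY012 or any one 24 min array, 1 without the 7 min array of BY008 or of BY012 and 0 without that of BY003. The median change at 7 min was 0.32 without the -10 min array of BY012 and 0.34 without BY012. At 24 against 7 min 0 of 4 passed the test. Without the -10 min array of BY012, 2 passed it (SSZ1 and ZUO1, adjusted p = 0.0111 and 0.00825), and 1 did without BY012 or without the -10 min array of BY008.

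SSZ1 and ZUO1 encode both members of the ribosome-associated complex, an Hsp70 relative and a J protein. SSZ1 had 12.27, 12.35 and 11.13 at -10 min, 13.01, 12.78 and 12.85 at 7 min, and 13.42, 13.28 and 13.41 at 24 min. The low -10 min value belongs to BY012, and the times did not overlap. It was 2.74-fold higher at 24 min (1.45 ± 0.29, adjusted p = 0.00147). At 7 min it was 0.97 ± 0.29 higher (adjusted p = 0.0187, and 0.0902 without BY003 and 0.0625 without its 7 min array).

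ZUO1 had 13.27, 13.36 and 12.69 at -10 min, 13.74, 13.62 and 13.50 at 7 min, and 14.18, 14.14 and 14.08 at 24 min. It was 2.04-fold higher at 24 min (1.03 ± 0.18, adjusted p = 0.000839). Its 7 min call (0.52 ± 0.18, adjusted p = 0.0394) was lost without any one experiment (adjusted p = 0.0662 to 0.185). Its step between 24 and 7 min was 0.51 ± 0.18, with adjusted p = 0.0593, and 0.0313 with experiment as a replicate block.

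SSB1 and SSB2 encode the Hsp70 proteins that bind chains leaving the ribosome. SSB1 had 14.34, 14.27 and 13.64 at -10 min, 14.64, 14.59 and 14.66 at 7 min, and 14.68, 14.71 and 14.70 at 24 min. SSB2 had 13.92, 13.88 and 13.33 at -10 min, 14.18, 14.11 and 14.22 at 7 min, and 14.30, 14.33 and 14.32 at 24 min. Both were dimmest on the -10 min array of BY012, and their arrays at 24 min lay within 0.03 of each other. Each was 1.53-fold higher at 24 min (0.61 ± 0.18, adjusted p = 0.014 for SSB1, and 0.61 ± 0.17, adjusted p = 0.0095 for SSB2). Both calls were lost without BY003, where the changes were 0.75 and 0.72 (adjusted p = 0.0565 and 0.0552). Their 7 min calls, at 0.55 ± 0.18 and 0.46 ± 0.17, were lost without any one experiment and with quantile normalization. The difference between their changes was at most 0.13 in any experiment at either time. The probe set used for SSB1 is of a kind that may read more than 1 gene, so its values may include SSB2. The second probe set of SSB1 changed more, by 0.82, 1.00 and 2.56 at 24 min in BY003, BY008 and BY012. The highest log2 value of any probe set on any array was 15.14, and the part of that upper limit in the size of the SSB1 change was not tested.

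Of the 8 TRiC genes, 6 were higher at each time, by small amounts. All 8 changes were above 0, between 0.21 and 0.71 at 7 min and between 0.26 and 0.79 at 24 min, and those that passed the test were not the same at both times (all but CCT4 and CCT6 at 7 min, and all but CCT4 and CCT8 at 24 min). With array medians subtracted, 8 of 8 passed at both times. The median change was 0.44 at 7 min and 0.52 at 24 min (0.77 and 0.85 relative to all genes), and none passed between 24 and 7 min, where the changes ranged from -0.08 to 0.18. CCT2 and CCT7 were called at 24 min without any single experiment or array. The count at 24 min was 2 without BY003, 5 without BY008 and 4 without BY012, and at 7 min 0, 4 and 2, with 3 of 8 without the -10 min array of BY012 or of BY003, the 24 min array of BY003, or the 7 min array of BY008 or of BY012, and 2 without the 7 min array of BY003.

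CCT7 had 11.79, 11.87 and 11.56 at -10 min, 12.48, 12.35 and 12.50 at 7 min, and 12.53, 12.52 and 12.54 at 24 min. It was 1.63-fold higher at 7 min (0.71 ± 0.13, adjusted p = 0.00186, and 0.0619 without BY003) and 1.73-fold higher at 24 min (0.79 ± 0.13, adjusted p = 0.000497). CCT2 had 11.93, 12.19 and 12.01 at -10 min, 12.77, 12.64 and 12.66 at 7 min, and 12.74, 12.94 and 12.61 at 24 min. It was 0.64 ± 0.14 higher at 7 min (adjusted p = 0.00451, and 0.121 without BY003) and 0.72 ± 0.14 at 24 min (adjusted p = 0.00138). For both genes every array after the pulse was above every array before it. At 24 min the others were 0.51 ± 0.16 (TCP1), 0.53 ± 0.15 (CCT3), 0.26 ± 0.12 (CCT4), 0.56 ± 0.16 (CCT5), 0.39 ± 0.13 (CCT6) and 0.31 ± 0.15 (CCT8). Of these, CCT4 and CCT8 missed the threshold (adjusted p = 0.0866 and 0.083), and the arrays of CCT8 overlapped those at -10 min.

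Of the prefoldin genes, GIM3 and PAC10 were higher at 7 min, and GIM3, GIM5 and PAC10 at 24 min. The class had a median change of 0.71 at 7 min and 1.11 at 24 min (1.05 and 1.44 relative to all genes), and these calls held without any single experiment or array. GIM3 had 11.05, 11.28 and 10.62 at -10 min, 12.54, 12.07 and 12.25 at 7 min, and 12.46, 12.43 and 12.36 at 24 min. It was higher at 7 min (1.30 ± 0.19, 2.47-fold, adjusted p = 0.000554), with 1.43 ± 0.19 at 24 min (2.70-fold, adjusted p = 0.000132) and 0.13 ± 0.19 between 24 and 7 min.

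PAC10 had 11.04, 10.96 and 10.29 at -10 min, 11.96, 11.63 and 11.67 at 7 min, and 12.01, 12.23 and 12.01 at 24 min. It was 1.99-fold higher at 7 min (0.99 ± 0.21, adjusted p = 0.00366) and 2.5-fold higher at 24 min (1.32 ± 0.21, adjusted p = 0.000377). GIM5 was 0.43 ± 0.19 at 7 min (adjusted p = 0.0785, and 0.0377 with experiment as a replicate block) and 0.91 ± 0.19 at 24 min (adjusted p = 0.00197). The difference of GIM5 between 24 and 7 min was 0.48 ± 0.19, with adjusted p = 0.0796, and 0.0367 with the block. No prefoldin gene was called in that comparison, and without the -10 min array of BY012 GIM5 alone was (adjusted p = 0.0368). GIM4 differed from its partner subunits in value, at -0.03 ± 0.13 at 7 min and -0.27 ± 0.13 at 24 min (adjusted p = 0.844 and 0.0789), and its arrays at 24 min lay below those at -10 min in all 3 experiments. Whether its change differed from theirs was not tested.

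Of the 4 organelle chaperone genes, 3 were lower at 7 min and 2 at 24 min. The mitochondrial genes HSP60, HSP10 and SSC1 were lower at 7 min, and HSP60 and the endoplasmic reticulum gene KAR2 at 24 min. At 7 min all 4 changes, between -0.64 and -0.53, were below the median of all genes. The class median was -0.57 at 7 min and -0.42 at 24 min (-0.24 and -0.09 relative to all genes). With array medians subtracted, only HSP10 at 7 min was called and none at 24 min, and without BY003 none was called at either time.

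HSP60, the mitochondrial chaperonin, had 13.73, 13.83 and 13.84 at -10 min, 13.32, 13.37 and 13.02 at 7 min, and 13.35, 13.35 and 13.13 at 24 min. It was -0.56 ± 0.14 at 7 min and -0.52 ± 0.14 at 24 min (adjusted p = 0.00943 and 0.0088). Those calls were lost with array medians subtracted (adjusted p = 0.0536 and 0.142) and without BY003 (adjusted p = 0.0882 and 0.0735). HSP10, its co-chaperonin, had 13.57, 13.53 and 13.49 at -10 min, 12.93, 13.11 and 12.64 at 7 min, and 13.26, 13.18 and 13.20 at 24 min. It was lowest at 7 min (-0.64 ± 0.14, adjusted p = 0.00544, and 0.0957 without BY003), with -0.32 ± 0.14 at 24 min (adjusted p = 0.0766).

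SSC1, the mitochondrial Hsp70 that drives protein import, had 13.06, 13.17 and 13.10 at -10 min, 12.47, 12.76 and 12.35 at 7 min, and 12.91, 12.98 and 12.71 at 24 min. It too was lowest at 7 min (-0.58 ± 0.15, adjusted p = 0.00963), a call lost with array medians subtracted (adjusted p = 0.0612) and without BY003 (adjusted p = 0.123), and at 24 min it was -0.24 ± 0.15 (adjusted p = 0.181). KAR2, the Hsp70 of the endoplasmic reticulum, had 13.52, 14.07 and 13.55 at -10 min, 13.09, 13.63 and 12.83 at 7 min, and 13.06, 13.10 and 12.68 at 24 min. BY008 started brighter than the other experiments, and the times at 7 and -10 min overlapped. KAR2 was -0.77 ± 0.24 at 24 min (1.71-fold lower, adjusted p = 0.0168). That call was lost with array medians subtracted (adjusted p = 0.108), without BY003 (0.0702), without the -10 min array of BY008 (0.0594) and without the 24 min array of BY012 (0.0615). At 7 min it was -0.53 ± 0.24 (adjusted p = 0.087, and 0.0166 with experiment as a replicate block).

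Experiment BY008 shows the order of these changes over 8 times. Each later array was set against the -10 min array of the same experiment, with no replicate and no test. The median of the stress-induced class was -0.28 at 3 min, -0.98 at 7 min, -1.44 at 10 min, -1.62 at 14 min, -1.56 at 24 min, -0.96 at 56 min and -0.42 at 120 min. HSP42 was already at -0.84 at 3 min and reached -3.69 at 24 min. HSP78 and SIS1 were lowest at 10 min (-1.93 and -1.53), and HSP104 and SSA1 at 24 min (-2.77 and -1.94). HSP30 was lowest at 10 min (-2.28), stood at -0.06 at 14 min and was at 0.93 at 24 min.

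By 120 min part of the stress-induced class was back near its start. HSP82 stood at 0.08, SSA4 at 0.10, HSP78 at 0.00 and HSP104 at -0.25 relative to -10 min. HSP26 (-2.54), SSA3 (-1.31) and HSP12 (-1.27) were still at least 2-fold lower, and HSP42 was at -0.63. Counted at that fold, 8 of the 10 genes were lower at 24 min, 4 at 56 min and 3 at 120 min, against 25.4%, 17.6% and 12.2% of all genes. SSA3 went lower with each later time in this experiment. These values depend on the start: against the mean of the 3 arrays at -10 min, the class median relative to all genes at 120 min was -0.68, and against the -10 min array of BY008 it was -0.19.

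The translation-linked classes stayed above their start in BY008 at every later time except for GIM4. The ribosome-bound median was 0.10 at 3 min, 0.61 at 24 min, 0.68 at 56 min and 0.49 at 120 min, with SSZ1 at 1.30 and ZUO1 at 0.96 at 56 min. All 8 TRiC genes were above the start at each of the 7 later times, with a median of 0.38 at 14 min and 0.30 at 120 min. At 3 min the prefoldin median was 0.24, it reached 0.99 at 24 min, and at 120 min it was 0.48. The organelle median was -0.48 at 10 and 14 min, 0.01 at 56 min and 0.05 at 120 min, while that of all genes was -0.34 at 10 min and -0.22 at 120 min.

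**Figure D4:**
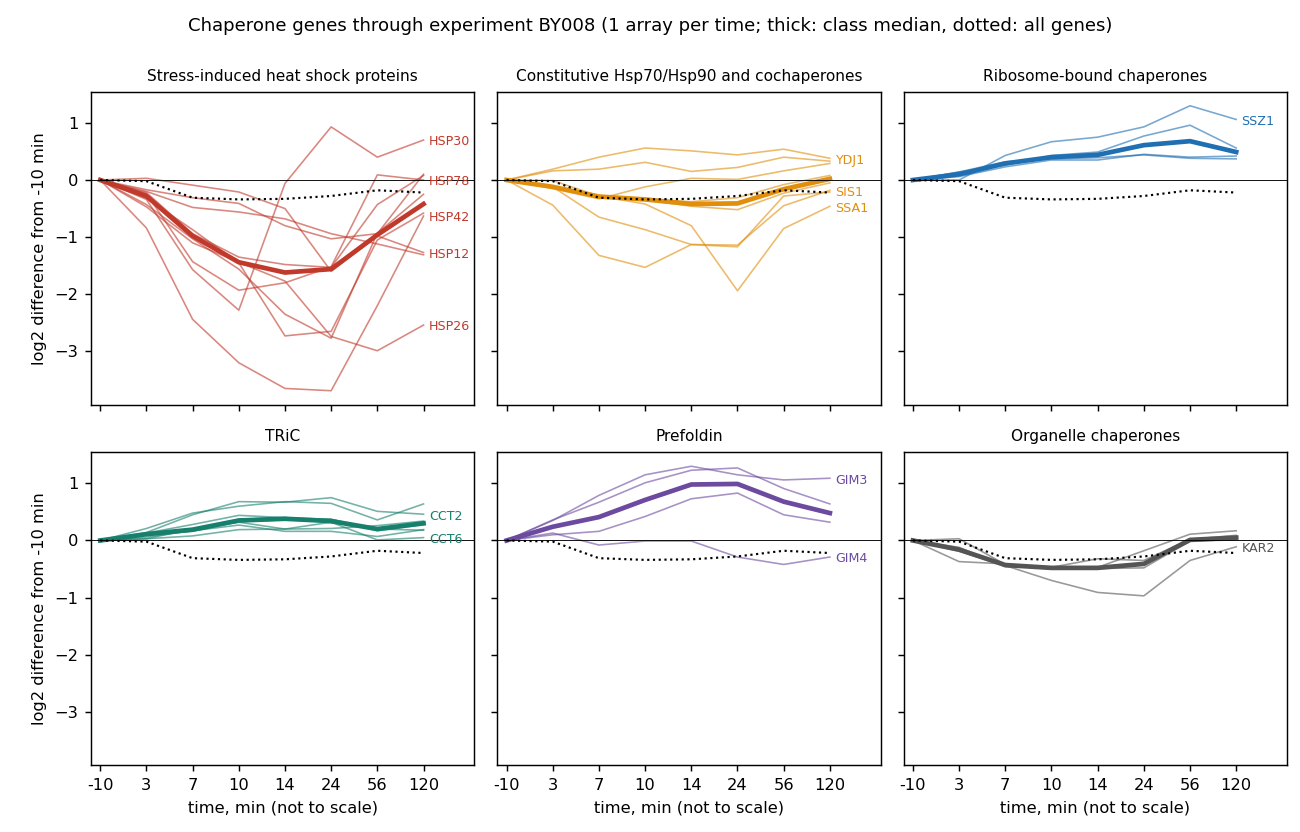
Log2 difference from the -10 min array in experiment BY008 for each gene (thin lines), with the class median (thick) and the median of all genes (dotted), over 8 times spaced evenly and not to scale, 1 array each. The stress-induced class reaches its lowest median at 14 min (-1.62) and has come back to -0.42 at 120 min, with HSP26 still at -2.54, whereas the ribosome-bound, TRiC and prefoldin medians stay above 0.

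Of 56 further measured genes that act with these chaperones, 10 were higher and 19 lower at 7 min, and 14 higher and 25 lower at 24 min, shares near those of all genes. At 24 against 7 min 6 were higher and 6 lower, against 13.2% and 20.2% of all genes. With experiment as a replicate block 9 were higher and 11 lower, against 902 and 1350 of all 5449 genes. By group, 7 of 9 stress regulators and stress-responsive genes were lower at 24 min and none higher (HSP31 and HSP150 did not pass the test). Of 11 Hsp90 cochaperones 4 were higher and 6 lower, and of 9 J proteins 2 were higher and 3 lower. Of 7 nascent chain and TRiC partners 3 were higher and 1 lower, of 9 mitochondrial genes 3 and 4, and of 11 genes of the endoplasmic reticulum 2 and 4. Without BY003, 5 were higher and 6 lower at 7 min, and 9 higher and 22 lower at 24 min.

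Among the regulators, HSF1 was -0.78 ± 0.23 at 7 min and -0.85 ± 0.23 at 24 min (adjusted p = 0.0194 and 0.00897). The 7 min call was lost without BY003 (adjusted p = 0.0729), without BY008 (0.0654) and without the 7 min array of BY008 (0.0653). MSN2 was 2.06-fold lower at 24 min (-1.04 ± 0.18, adjusted p = 0.000614) and -0.91 ± 0.18 at 7 min. MSN4 had 10.61, 10.83 and 12.21 at -10 min, 10.51, 10.79 and 10.91 at 7 min, and 8.68, 8.49 and 8.30 at 24 min. It was not called at 7 min (-0.48 ± 0.36, adjusted p = 0.278) and was 6.64-fold lower at 24 min (-2.73 ± 0.36, adjusted p = 0.000128), with the difference between 24 and 7 min itself called (-2.25 ± 0.36, adjusted p = 0.00178). Without the -10 min array of BY012, where MSN4 was brightest, the 24 min call held (adjusted p = 2.67e-05).

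CUR1 and BTN2, which encode factors that sort misfolded proteins, were lower at 7 min by 5.13-fold (-2.36 ± 0.29) and 2.98-fold, and at 24 min by 6.43-fold and 2.09-fold. RPN4, the activator of proteasome genes, was 3.05-fold lower at 7 min (-1.61 ± 0.29, adjusted p = 0.00178) and 2.92-fold lower at 24 min. MPD1, a protein disulphide isomerase gene, was 5.45-fold lower at 24 min (-2.45 ± 0.48, adjusted p = 0.00147). The largest rises were of the Hsp90 phosphatase gene PPT1, the Hsp90 cochaperone gene CNS1 and the J protein gene JJJ3. PPT1 had 9.45, 8.98 and 8.43 at -10 min, 11.57, 11.43 and 11.96 at 7 min, and 11.86, 11.93 and 12.09 at 24 min, or 8.04-fold higher at 24 min (3.01 ± 0.25, adjusted p = 8.54e-06). CNS1 was 5.23-fold higher at 7 min and 5.76-fold at 24 min (2.53 ± 0.23, adjusted p = 1.29e-05), and JJJ3 4.04-fold and 7.39-fold (2.89 ± 0.27, adjusted p = 1.5e-05).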

How the data were processed

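The authors deposited linear intensity values per probe set, 1 column for each of 14 Affymetrix arrays. Per the submitters' processing notes, the tools include R 2.10.0, affy and RMA, with order and settings unstated. Here log2 was taken of the deposited intensity values, with no further scaling. Of 10928 probe sets, 5498 were given to an S. cerevisiae gene by the supplied annotation. The brightest was kept for 47 genes with more than 1, which left 5449 genes, and 12 symbols were updated.

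In limma 3.58.1 (R 4.3.3), all 14 arrays entered 1 fit with a mean for each time, with empirical Bayes moderation (6 residual and 3.31 prior degrees of freedom), so each standard error pools the spread of the replicated times. The p values of limma were adjusted over all genes by the Benjamini-Hochberg method, and a gene was called under 0.05. The comparisons against -10 min share those arrays. Tables used pandas 2.3.3 and figures matplotlib 3.10.9 (Python 3.11.15). The fit was tested on simulated data.

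The labels give each array an experiment code, which pairs arrays over time, so the fit was repeated with experiment as a replicate block. The genes' deviations from their mean at each time were correlated between arrays of 1 experiment. In BY003 r was 0.08 (7 with -10 min), -0.05 (24 with -10 min) and 0.21 (24 with 7 min). In BY008 it was 0.63, 0.36 and 0.35 and in BY012 0.56, 0.08 and 0.44, in the same order. With the block, 14 members were higher and 16 lower at 7 min, against 981 and 2321 of all 5449 genes.

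The members, classes, lists and tests were chosen with earlier results of these data known. Values per array are printed for the called members with the largest changes of each class at 7 and 24 min and for paralog partners. Those of HSP104, HSP12, HSP30, MSN4 and PPT1 were added after the values were seen. Genes named in the report outside the list are HSF1, MSN2, MSN4 and those with the largest called changes, with HSP31 and HSP150 added after the values were seen. Those of the closing observations were also chosen after the values were seen. Sequences of the members were not used here, so the planned count of promoter motifs was not made.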

Additional observations from a re-analysis of the deposited data

How the results depend on the processing

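No called direction of a member was reversed under the 19 alternative fits or at an adjusted p under 0.01. Of 26 members called at 7 min, 6 kept the call under every alternative (HSP82, HSP42, HSP78, SIS1, GIM3 and PAC10). At 24 min this was 20 of 31, and between 24 and 7 min 4 of 8 (HSP104, HSP12, HSP30 and SSA1). HSP30 was not tested without the dimmest 25% of genes, so its calls cover the other alternatives. Leaving out each experiment or array in turn gave 2 to 14 members higher and 5 to 13 lower at 7 min, 8 to 17 higher at 24 min, 1 to 4 higher and 3 to 8 lower between 24 and 7 min, and 18 to 33 by the F test, and most of the lowest counts came without BY003. These analyses include 8 chosen after seeing the data. Leaving out an experiment also leaves fewer arrays at each replicated time, so a call can be lost without a smaller change. An adjusted p under 0.01 left 5 members higher at 7 min and 9 at 24 min. With array medians subtracted 8 members were lower at 7 min. The 1 member higher at 24 than at 7 min became 2 with array medians subtracted, 2 with trend and robust options, 3 with a random block, 3 with experiment as a replicate block, and 0 without the dimmest 25% of genes. The block changed no call of a member beyond those given beside the results. The cause of these shifts was not tested.

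For the 56 other chaperone genes, leave-outs gave 5 to 10 higher and 6 to 20 lower at 7 min, 9 to 15 higher at 24 min, and 1 to 10 higher and 2 to 8 lower between 24 and 7 min. The 19 lower at 7 min became 11 with array medians subtracted, 12 with quantile normalization and 9 at an adjusted p under 0.01, where 6 were higher. At 24 against 7 min a random block gave 11 higher and 10 lower, the replicate block 11 lower, and an adjusted p under 0.01 2 higher.

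Relative to all genes, the constitutive median at 7 min ranged from -0.09 to 0.03 over leave-outs, so its sign was not fixed. Other class medians relative to all genes at the replicated times kept their sign in the analyses that moved them beyond the spread between experiments. The stress-induced median at 7 min ranged over leave-outs from -1.19 to -0.67. The constitutive median was -0.26 at 7 min, -0.49 at 24 min and -0.11 between 24 and 7 min with quantile normalization, and at 24 min -0.25 without dim genes and -0.21 to -0.06 over leave-outs. The organelle median was -0.45 at 7 min and -0.36 at 24 min with quantile normalization, -0.21 at 24 min without dim genes, and -0.40 to -0.17 at 7 min over leave-outs. At 24 against 7 min the ribosome-bound median was 0.21 with quantile normalization and the TRiC median 0.04 to 0.11 over leave-outs. In BY008, with the mean of the 3 arrays at -10 min as the start, the constitutive median at 14 min was 0.03, against -0.09 from the array of BY008. The promoter motif count was not run.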

Other observations

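Prefoldin has 6 subunits, and the other 2, YKE2 and PFD1, were among the partner genes. They were chosen here after their values were seen. YKE2 was 0.51 ± 0.17 at 7 min and 0.91 ± 0.17 at 24 min on the log2 scale (limma adjusted p = 0.0291 and 0.00103), and PFD1 0.66 ± 0.18 and 0.68 ± 0.18 (adjusted p = 0.0126 and 0.00687). The 7 min call of YKE2 was lost without BY003 (adjusted p = 0.171), BY008 (0.0859), the 7 min array of BY003 (0.107) or of BY008 (0.0585), and the -10 min array of BY012 (0.0743). The calls of PFD1 were lost without BY003 (adjusted p = 0.12 at 7 min and 0.0632 at 24 min). GIM4, at -0.27 ± 0.13 at 24 min, was the only subunit of the complex with a value below 0 at that time.

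Genes that act with SSC1 in mitochondria went in both directions. PAM18, a J protein of the import motor, was 2.69-fold higher at 7 min and 3.20-fold higher at 24 min (1.68 ± 0.17, adjusted p = 2.86e-05). TIM44, which tethers Ssc1 to the import channel, was 0.96 ± 0.12 higher at 24 min (adjusted p = 7.9e-05), and PAM16 0.92 ± 0.16 (adjusted p = 0.000649). MDJ1, the J protein of the mitochondrial matrix, was 2.90-fold lower at 7 min (-1.54 ± 0.20, adjusted p = 0.000253) and 2.20-fold lower at 24 min. These genes were also chosen after their values were seen. Among the rest of the 9 mitochondrial genes, ECM10, SSQ1 and MCX1 were lower at 7 and 24 min. With quantile normalization the 24 min change of ECM10 was 0.02 (adjusted p = 0.926). The 24 min call of SSQ1 was lost with it (adjusted p = 0.122), with array medians subtracted (0.0552) and without BY003 (0.0732). The 7 min call of MCX1 was lost with array medians subtracted (adjusted p = 0.152) and without any one experiment (0.0705 to 0.119). Those of ECM10 and SSQ1 were lost without BY003 (0.087 and 0.0677). MGE1 (0.18 ± 0.20 at 24 min, adjusted p = 0.438) and JAC1 (0.29 ± 0.16, adjusted p = 0.13) were not called at either time.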
